A study of Mus musculus and Homo sapiens with 43 samples.

Results

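The genes described here encode molecular chaperones and their partners: HSP90, HSP70, HSP110 and BAG nucleotide exchange factors, small heat shock proteins, the cytosolic chaperonin TRiC, the mitochondrial chaperonin and the J domain proteins. They were chosen by gene symbol alone (the Hsp, Dnaj, Cct and Bag families and Tcp1, without the endoplasmic reticulum (ER) chaperones Hspa5, Hsp90b1, Dnajb9, Dnajb11 and Dnajc3), and 74 of the 24421 genes in the polysome table matched. The translational efficiency table listed 61 of them among 9830 genes, and 73 were found among 23487 in the RiboTag table. The choice by symbol also took in ER or ER membrane proteins, of which 9 were listed as such (Hspa13, Dnajb12, Dnajb14, Dnajc1, Dnajc10, Dnajc16, Dnajc18, Dnajc22 and Dnajc25), and 10 mitochondrial proteins (Hspa9, Hspd1, Hspe1, Dnaja3, Dnajc4, Dnajc11, Dnajc15, Dnajc19, Dnajc28 and Dnajc30). Some members are named by sequence rather than by a folding role: Hspb11 encodes the intraflagellar transport protein IFT25, Dnajc24 acts in diphthamide synthesis, and Dnajc9 is a histone chaperone.

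The study lowered Lars, which encodes leucyl-tRNA synthetase, the enzyme that charges leucine onto its tRNAs. The 18 polysome libraries came from the mouse mammary carcinoma line 4T07: cells with a control hairpin (shCtrl) and with either of 2 Lars hairpins (shLars3, shLars4), each with 3 libraries of a low fraction, labelled as 1-2 polysomes, and 3 of a high fraction, labelled as 3+. RNA-Seq of the same 3 hairpin groups had 2 libraries each, and 1 footprint library was a pool with no group label. RiboTag libraries came from 6 PyMT mammary tumors of strain C57BL/6J, 3 Lars fl/wt and 3 Lars wt, and all 6 animals carried rpl22HA fl/wt, MMTV-Cre+ and MMTV-PyMT+. The MMTV promoter drives both the Cre and the oncogene in mammary epithelium, and Cre switches on the HA tag on ribosomal protein Rpl22, so tagged ribosomes mark cells in which Cre has acted. Ages were not given in the sources used here, and nothing in the labels says that libraries of the 4T07 groups came from separate cultures, so their p-values measure only the spread between those libraries.

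All values come from comparison tables computed by the authors, with 1 value per gene and no column per library. The level of a gene in each library, the depth of each library and the spread between replicates were therefore not analysed here, and the standard error (SE) in the tables stands for the error. For the polysome and RiboTag tables the contrast and its direction are not stated and could not be fixed from the values, so changes are given as positive or negative. The polysome comparison carries the letters H and L in its name, without saying which groups were compared. Its values, that of Lars included, may therefore compare other groups than the mRNA values do. The deposited log2 change of Lars itself was -1.46 for mRNA (shLars over shC, the control hairpin), -0.82 (SE 0.30, DESeq2 adjusted p 0.0285) in the polysome comparison and -0.75 (SE 0.43, unadjusted p 0.0807) in RiboTag, as the authors' deposited tables give them. In 4T07, of the luminal markers listed, only Krt8 and Krt18 had high mean normalized counts, 8383 and 4113 in the authors' deposited polysome table. Epcam and Cdh1, which mark epithelium, had 16.4 and 124. Krt19, also a luminal keratin, had 40.0. The other luminal markers (Muc1, Esr1, Foxa1, Cldn3, Cldn4, Cldn7 and Elf5) ran from 0.0711 for Elf5 to 15.2 for Esr1 in the authors' deposited table.

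Chaperones hold unfolded segments of a protein and let it fold without aggregating. HSP70 binds short hydrophobic stretches, J proteins deliver the client and start the ATP hydrolysis, and exchange factors such as HSP110 and BAG proteins release it. HSP90 acts later on signalling proteins, TRiC folds actin and tubulin inside its chamber, and Hspd1 (HSP60) with its lid Hspe1 (HSP10) does so for proteins imported into mitochondria. When unfolded proteins build up in the cytosol, heat shock factor HSF1 binds heat shock elements, inverted repeats of the unit GAA, in front of many of these genes.

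The elements were looked for because the same factor is known to control many of the genes below. RefSeq (GRCm38.p6) gave windows from 250 bases before to 50 bases after a transcription start for 59 of the 74 genes. An element of 3 units, searched on both strands as GAANNTTCNNGAA or TTCNNGAANNTTC, was present in windows of 4 of these 59 genes (6.78%) and in 0.662% of 27025 genes with a window. The sequences of these 4 genes follow with the units in capitals, each on the strand of its gene and with the bases around the element.
Hspd1: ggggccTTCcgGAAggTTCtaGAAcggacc
Hspe1: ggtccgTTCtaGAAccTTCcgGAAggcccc
Dnajb6: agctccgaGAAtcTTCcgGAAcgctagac
Hsph1: gctgcagaTTCtgGAAagTTCtcctcagt
The Hspd1 and Hspe1 sequences are the 2 strands of the same bases, chr1:55088053-55088082, and hold 4 units in a row. The element begins 89 bases before the Hspe1 start and 144 bases before 1 Hspd1 start, inside the Hspd1 gene as annotated from its other start. The Dnajb6 stretch is at chr5:29735844-29735872 on the plus strand, and its element begins 46 or 127 bases before the 2 annotated starts. The Hsph1 stretch, chr5:149636280-149636308 on the minus strand, has its element just after the start, by 16 or 37 bases. A shorter match of 2 units (GAANNTTC or TTCNNGAA), which the longer element contains, was in windows of 17 of the 59 genes (28.8%) against 17% of all genes. A CCAAT box, on either strand, was in 35.6% of the members and 41.1% of all genes. The letters CACGTG, also searched, were in 8.47% of the members and 8.09% of all genes. A match says only that these letters are present, and the measurements below do not bear on binding.

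In the polysome comparison the chaperone genes lay mainly on the negative side. Of the 70 members with an adjusted p in the authors' deposited table, 20 were called negative and 5 positive at a DESeq2 adjusted p under 0.05, and 45 were not called. That is 28.6% and 7.14% of the members, beside 17.5% called negative and 10.4% called positive (27.9% in either direction) among all 13485 genes with an adjusted p. The median log2 change of the members was -0.35, beside -0.12 over all these genes, and 80% of members against 57.19% of all genes were below 0. The other 4 members (Dnajb3, Dnajb7, Dnajb8 and Dnajc6) had mean normalized counts under 2 and no adjusted p. A further 8 members had an adjusted p from 0.05 to 0.10, and all of them were negative.

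**Figure D1:**
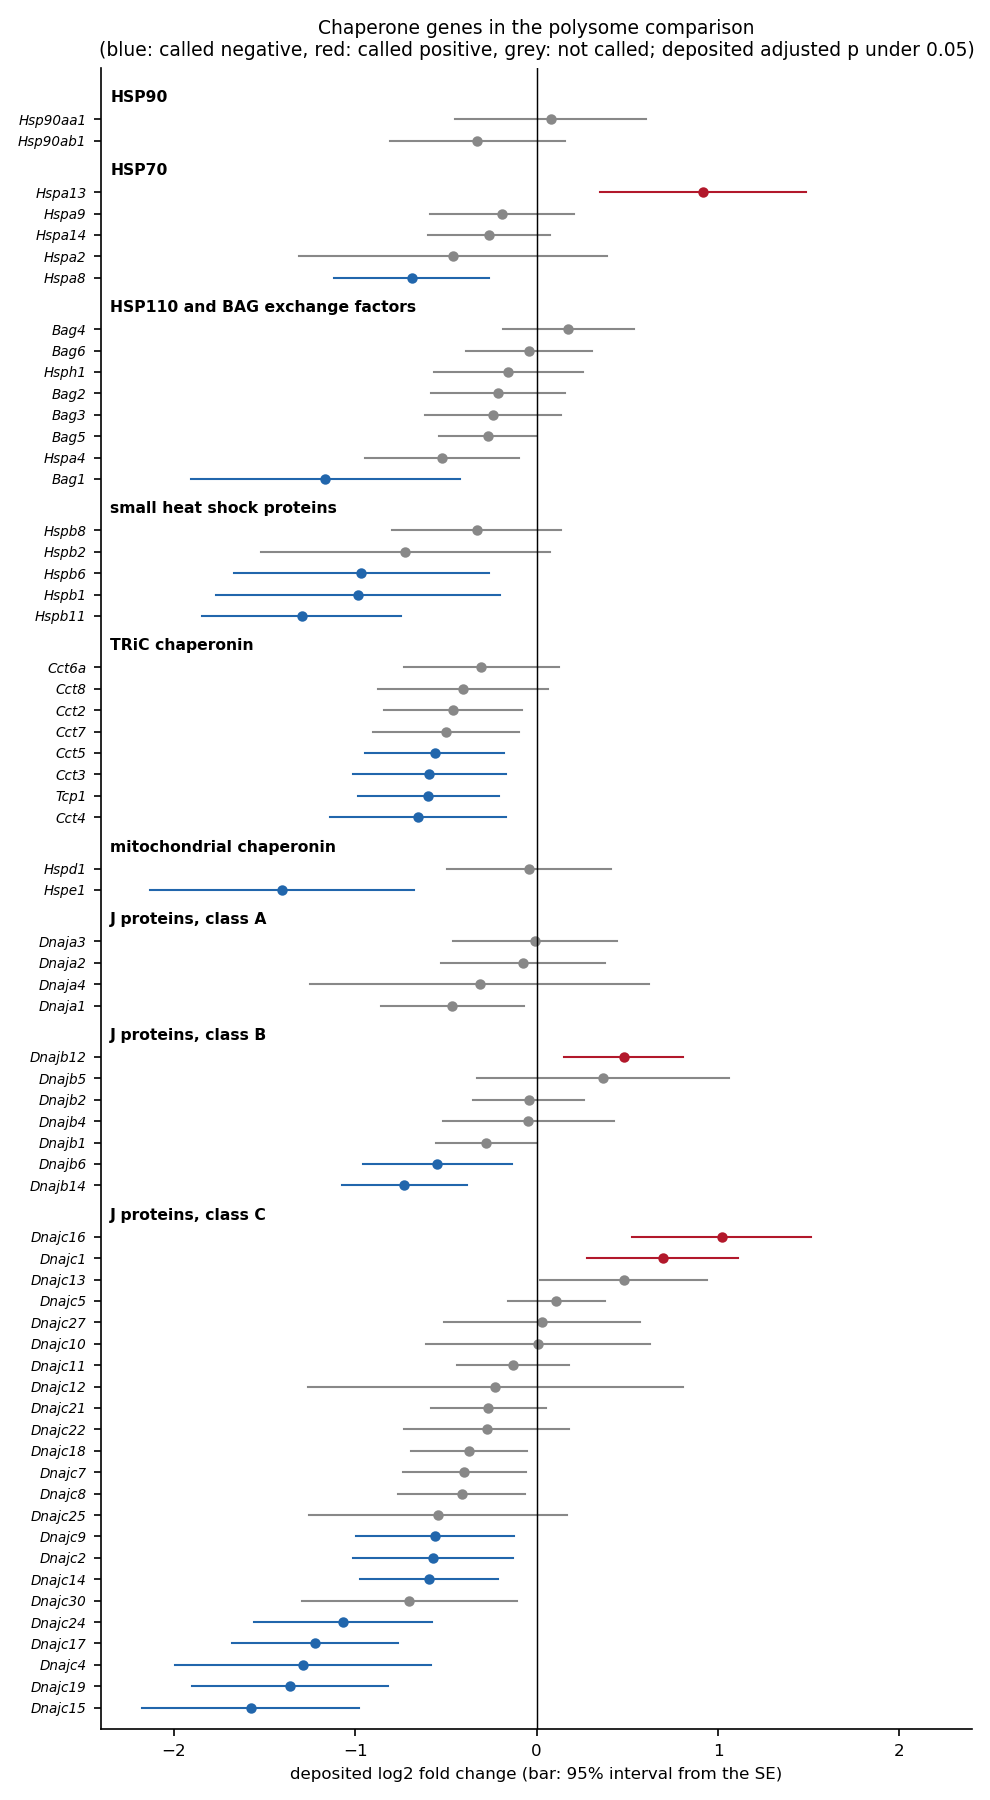
Log2 change of each chaperone gene with an adjusted p whose mean normalized count was at least 10 in the polysome comparison, in groups by role; bars are 95% intervals from the deposited SE. Called members are blue (negative) or red (positive), and a reader sees TRiC wholly on the negative side while the red points Hspa13, Dnajb12, Dnajc16 and Dnajc1 encode ER proteins.

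Of the cytosolic HSP70 and HSP90 genes, Hspa8 was called and both HSP90 genes were not. Hspa8, the constitutive HSP70 of the cytosol, had a log2 change of -0.69 (SE 0.22, DESeq2 adjusted p 0.00907, mean normalized count 22807) in the authors' deposited table, a 1.61-fold change. The 2 cytosolic HSP90 genes were not called: Hsp90aa1, the stress-inducible form, stood at 0.08 (95% interval -0.45 to 0.60) and Hsp90ab1, the constitutive form, at -0.33 (-0.81 to 0.15) in the authors' deposited table. The value of Hspa8 lies inside the interval of Hsp90ab1 and outside that of Hsp90aa1; the differences between these genes were not tested. Among the exchange factors, Bag1, which couples HSP70 to the proteasome, was called at -1.16 (SE 0.38, adjusted p 0.0113), and the other 7 were not, as in the authors' deposited table. Of those 7, Hspa4, an HSP110, stood at -0.52 (adjusted p 0.0567), Hsph1, the heat-inducible HSP110, at -0.16, and Bag3, which works with Hspb8 in selective autophagy, at -0.24 in the authors' deposited table. The remaining exchange factors were Bag2 (-0.21), Bag4 (0.18), Bag5 (-0.27) and Bag6 (-0.04) in the authors' deposited table. The 3 other HSP70 genes not called were Hspa9 (-0.19), the mitochondrial HSP70, Hspa14 (-0.26), which acts at the ribosome, and Hspa2 (-0.46), the form known from testis, in the authors' deposited table.

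Every TRiC subunit was on the negative side. The ring is built from 8 different subunits, and in the authors' deposited table the 8 genes for them (Cct6a in place of the testis form Cct6b) lay within a narrow span of log2 change, from -0.65 to -0.30, with a median of -0.53. The genes Cct4 (-0.65), Tcp1 (-0.60), Cct3 (-0.59) and Cct5 (-0.56) were called, with DESeq2 adjusted p of 0.0321, 0.0135, 0.0257 and 0.0187 in the authors' deposited table. The next 2, Cct7 at -0.50 (adjusted p 0.0520) and Cct2 at -0.46 (adjusted p 0.0582), just missed the threshold, and Cct8 (-0.41) and Cct6a (-0.30) were further from it in the authors' deposited table. Neighbours in this order differ by less than their SE. The 4 calls among these 8 genes stand beside 17.5% called negative over all genes, whose median was -0.12. Cct6b had a mean count of 3.58 and a log2 change of -1.13 in the authors' deposited table.

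Prefoldin, the complex that hands unfolded actin and tubulin to TRiC, was on the same side with larger values. Of its 6 subunits, 5 were called negative and 0 positive, and the median log2 change was -1.29 in the authors' deposited table. Over all genes 17.5% were called negative, with a median of -0.12. Pfdn4 (-1.59, adjusted p 8.833e-08), Pfdn5 (-1.34) and Pfdn1 (-1.51) had the smallest p in the authors' deposited table by DESeq2, and Vbp1 (-0.27) was not called. The difference between TRiC and prefoldin was not tested.

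The mitochondrial chaperonin gave different values for its 2 parts. Hspe1 (chr1:55088148-55091317), the lid, had a log2 change of -1.40 (SE 0.37, DESeq2 adjusted p 0.00143, mean normalized count 6142), a 2.64-fold change, in the authors' deposited table. Hspd1 (chr1:55077833-55088243), the barrel, stood at -0.04 (95% interval -0.49 to 0.41) (mean normalized count 15196) in the authors' deposited table. The 2 genes share the start region shown above, and their annotated bodies overlap by 96 bases. Their log2 changes differed by -1.36, Hspe1 minus Hspd1; the difference was not tested. Hspe1 has 7 annotated pseudogenes by symbol and Hspd1 has 5, and how the authors' counting treated reads that fit several copies was not analysed here.

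Among the mitochondrial J proteins 3 were called, all negative. Dnajc15 (chr14:77826217-77874917) and Dnajc19 (chr3:34057280-34081354), both J proteins of the inner membrane tied to the import motor, were at -1.58 (SE 0.30, DESeq2 adjusted p 7.605e-06) and -1.36 (SE 0.28, adjusted p 2.051e-05), as the authors' deposited table has it. Dnajc15 was the lowest of the 70 members with an adjusted p, a 2.98-fold change (mean normalized count 2200) in the authors' deposited table. Dnajc4 (chr19:6987911-6992591) was at -1.29 (SE 0.36, adjusted p 0.00258, mean count 216) by DESeq2 in the authors' deposited table. In all, 4 of the 10 mitochondrial members were called negative and none positive, with a median of -0.45, while Hspa9 (-0.19), Dnaja3 (-0.01) and Dnajc11 (-0.13) were not called in the authors' deposited table. Of 17 other genes for mitochondrial folding and quality control, 4 were called negative and 0 positive: Pam16 (-1.47), a partner of the import motor, Clpp (-0.83), a matrix protease, Hscb (-1.18), an iron-sulphur cochaperone, and Htra2 (-0.51), an intermembrane space protease, in the authors' deposited table. These 17 had a median of -0.30, and over all genes 17.5% were called negative with a median of -0.12.

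Among the ER members 4 were called positive. Leaving out Hspb3, whose mean count is 2.97 in the authors' deposited table, the 4 members called positive are all on the ER list. In the authors' deposited table these were Dnajc16 (chr4:141761998-141790644) at 1.02 (SE 0.25, DESeq2 adjusted p 0.000580, a 2.03-fold change), Hspa13 (chr16:75755190-75767276) at 0.92 (SE 0.29, adjusted p 0.00844), Dnajc1 (chr2:18205634-18394099) at 0.69 (SE 0.21, adjusted p 0.00626) and Dnajb12 (chr10:59879583-59899296) at 0.48 (SE 0.17, adjusted p 0.0190). Dnajc1 recruits the ER HSP70 BiP to ribosomes at the membrane, and Dnajb12 acts in the degradation of membrane proteins. Of the 9 ER members, 4 were called positive, 1 negative (Dnajb14, -0.73, DESeq2 adjusted p 0.000377) and 4 not called, with a median of 0.01, in the authors' deposited table. The 51 members assigned to neither organelle had 1 positive and 15 negative and a median of -0.41, as counted from the authors' deposited table. Over all genes 10.4% were called positive and 17.5% negative, with a median of -0.12. The 5 ER chaperones outside the rule gave no call in either direction, and Hspa5, which encodes BiP, stood at -0.45 (adjusted p 0.290) and Hsp90b1 at -0.46 in the authors' deposited table. Dnajb12, Dnajc1 and Dnajb14 overlap other annotated genes, and without overlapping ER members 2 positive and 0 negative calls are left among 6. The difference in sign between ER members and the rest was not tested, and the ER list was made with earlier results of these data known. Dnajc14, an ER membrane J protein that was not on the list, is counted above with the members of neither organelle and was called negative at -0.59 (adjusted p 0.0119) by DESeq2 in the authors' deposited table.

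Most of the remaining J proteins were not called. Class A, the 4 closest relatives of the bacterial DnaJ, had no call, from -0.46 (Dnaja1, adjusted p 0.0679) to -0.01 in the authors' deposited table. Dnajb1, the heat-inducible partner of HSP70, stood at -0.28 (adjusted p 0.135), while Dnajb6, a suppressor of aggregation, was called at -0.55 (adjusted p 0.0346) by DESeq2 in the authors' deposited table. Class C, whose members share only the J domain, gave 2 positive and 8 negative calls among 24 tested (10.4% and 17.5% over all genes). Beside those above they were Dnajc17 (-1.22, adjusted p 6.289e-06), a nuclear protein linked to splicing, Dnajc24 (-1.07), Dnajc2 (-0.57), a ribosome-bound J protein, and Dnajc9 (-0.56) in the authors' deposited table. The 14 class C members not called ran from -0.70 for Dnajc30 to 0.63 for Dnajc28, whose mean count was 8.17, and included Dnajc13 (0.48, adjusted p 0.112), an endosomal protein, and Dnajc5 (0.11), a synaptic vesicle protein, in the authors' deposited table.

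Of the 8 genes grouped as small heat shock proteins, which bind unfolding proteins without ATP, 3 were called negative and 1 positive. Among all genes 17.5% were called negative and 10.4% positive. Hspb11 is in this group by its name and encodes the intraflagellar transport protein IFT25. Hspb11 (chr4:107253593-107284497) was at -1.29 (SE 0.28, DESeq2 adjusted p 7.264e-05), Hspb1 (HSP27) at -0.98 (SE 0.40, adjusted p 0.0485) and Hspb6 at -0.97 (SE 0.36, adjusted p 0.0286), as the authors' deposited table has it. Hspb8 (-0.33) and Hspb2 (-0.72) were not called, and Hspb3 was called positive at 4.36 (SE 1.41, adjusted p 0.0106) from a mean count of 2.97, as the authors' deposited table has it.

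The HSP90 cochaperones gave 4 negative and 0 positive calls among 20, with a median of -0.24, in the authors' deposited table. That is near the 17.5% called negative among all genes, whose median was -0.12. The 3 with the smallest p were Ahsa2 (-0.55), an activator of the HSP90 ATPase, Sugt1 (-0.80) and Stub1 (-0.80), the ubiquitin ligase CHIP, in the authors' deposited table. Of the heat shock factors and their binding protein, Hsbp1 (-1.71, adjusted p 0.000778), a negative regulator of HSF1, was called and Hsf1 (-0.35) was not, by DESeq2 in the authors' deposited table. Of related HSP70 and HSP110 genes outside the rule, Hspa1b (-0.56), a stress-induced HSP70, Hspa1l (-0.52) and Hspa4l (0.18) were not called, and Hspa1a, at a mean count of 0.941, had no adjusted p in the authors' deposited table.

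Neighbouring genes limit these counts. Of the 25 called members, 13 overlap another annotated gene, as do 33 of all 74 members, and the share over all genes was not computed. Overlap was taken over whole annotated gene bodies, introns included, without regard to strand. The library kit does not mark strand, so where overlapping genes lie on opposite strands, reads of shared bases cannot be told apart. Dnajc19 overlaps Fxr1, and Hspa8 hosts the small nucleolar RNAs Snord14c, Snord14d and Snord14e. Without the 33 members that overlap another gene, 2 positive and 10 negative calls are left among 40 tested. Among all genes, overlapping ones included, 10.4% were called positive and 17.5% negative. Across all genes the polysome log2 change and genomic span were correlated (Spearman rho 0.379 over 12823 genes), and among the members rho was 0.109 over 70; genes are not independent replicates, and no test is given.

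The mRNA log2 changes of the chaperones with Lars knockdown were centred near 0. In the authors' deposited table the median log2 change of mRNA was 0.01 over 61 members and 0.00 over all genes, and 47 members were within 0.2 of 0. Only 3 members (4.92%, beside 7.66% of all genes) differed by more than 0.5: Hspb2 (0.96), a muscle small heat shock protein, Hspa2 (-0.76) and Dnaja4 (-0.55) in the authors' deposited table. Each of these 3 overlaps another annotated gene, which for Hspb2 is Cryab. The part of Cryab reads in the mRNA and footprint values of Hspb2 was not tested. The next highest were Hspb11 (0.35), Dnajc15 (0.32), Dnajc16 (0.30) and Dnajc11 (0.30), and the next lowest Dnajc4 (-0.31), Bag4 (-0.30) and Hsph1 (-0.28) in the authors' deposited table. Among further members and Hspa1b, Dnajb1 was at 0.05, Hsp90aa1 at -0.01, Hspb1 at -0.18, Dnaja1 at -0.20, Hspa1b at -0.29 and Bag3 at 0.12 in the authors' deposited table. TRiC mRNAs lay from -0.03 to 0.11, Hspd1 was at 0.09, Hspe1 at 0.16, Hspa9 at 0.18, Hsp90ab1 at 0.01 and Hspa8 at -0.05 in the authors' deposited table. That table gives no error or test for mRNA.

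**Figure D2:**
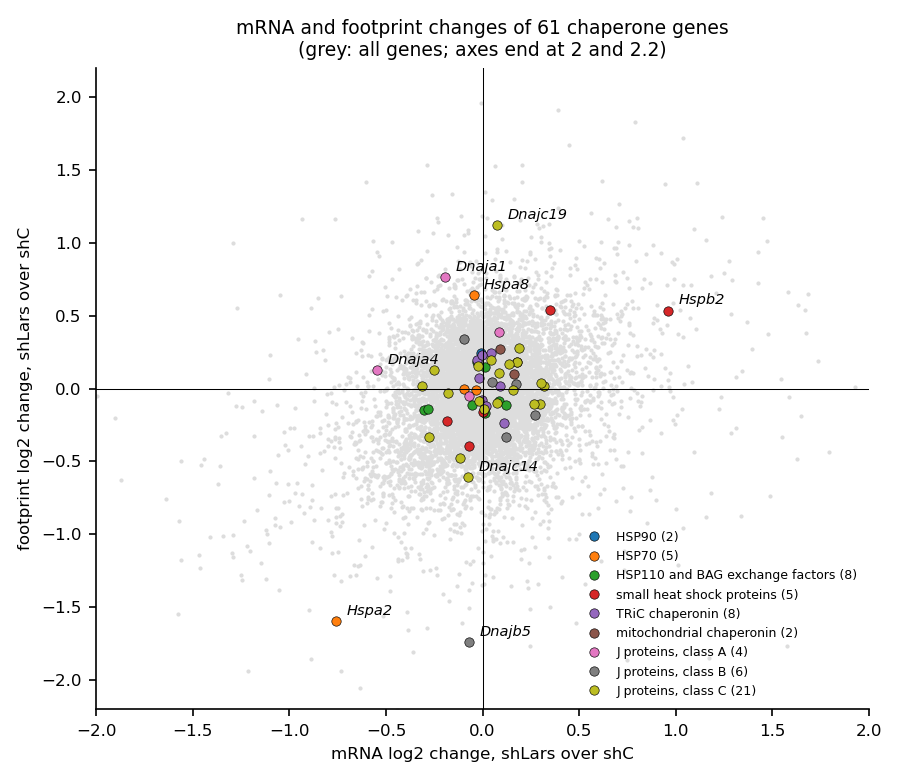
Log2 change of mRNA (horizontal) and of ribosome footprints (vertical), shLars over shC, for 61 chaperone genes coloured by role over all genes in grey. Most members lie within 0.2 of 0 for mRNA, while Dnajc19, Dnaja1 and Hspa8 lie above and Dnajb5 and Hspa2 below on the footprint axis. Dnajc19, Dnaja1 and Hspa8 are among the 6 members whose control log2 ratio of footprints to mRNA was under -3.5.

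The quartiles of the members' footprint changes were -0.13 and 0.18, against -0.07 and 0.12 for mRNA, and over all genes they were -0.23 and 0.19 against -0.14 and 0.14, as computed from the authors' deposited table. The median log2 change was 0.02, beside -0.01 over all genes, and 8 members (13.1%, beside 13.4% of all genes) differed by more than 0.5 in the authors' deposited table. The highest were Dnajc19 (1.12), Dnaja1 (0.76), Hspa8 (0.64), Hspb11 (0.54) and Hspb2 (0.54) in the authors' deposited table. Dnajc19, Dnaja1 and Hspa8 had very low log2 ratios of footprints to mRNA in control cells (-4.18, -3.69 and -8.95), which limits their values. The lowest were Dnajb5 (-1.74), Hspa2 (-1.60), Dnajc14 (-0.61), Dnajc17 (-0.48) and Hspb8 (-0.39) in the authors' deposited table. Dnajb5 and Hspa2 had low mean normalized counts in the polysome comparison, 85.75 and 42.36. Hspd1 (0.27), Hsp90aa1 (0.24), Hspa9 (0.18), Hspe1 (0.10), Hsp90ab1 (-0.13) and Hspb1 (-0.22) lay between, as did Tcp1 (0.23), Cct2 (-0.08), Hsph1 (-0.14), Dnajb1 (0.05) and Bag3 (-0.11) in the authors' deposited table. The footprints came from 1 pooled library in the labels, and which libraries gave the 2 groups of the table is not stated.

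No chaperone gene was called for translational efficiency, the ratio of footprints to mRNA. By xtail, 0 of 61 members passed an adjusted p of 0.05 in the authors' deposited table, where 0.0509% of all genes did, and 0 passed at an unadjusted p under 0.05, where 6.35% of all genes did. Of the genes on the pathway lists outside the rule, only Hsf5 was called, at -4.65 (xtail adjusted p 0.0176). Its mean normalized count in the polysome comparison was 2.98. The members with the smallest p were Dnaja1 at 0.88 (unadjusted p 0.0518, adjusted p 0.790), Dnajc11 at -0.40, Dnajb5 at -1.47, Dnajb12 at -0.45 and Cct7 at -0.33 in the authors' deposited table. The first of the 2 estimates that xtail makes, taken alone with the adjustment recomputed, called 511 genes, among them 1 member, Dnaja1, a cytosolic J partner of HSP70, at 0.96 (adjusted p 0.0103). The second estimate called no member and 8 genes in all. The median was -0.00 for members and -0.01 for all genes, and core members Hspa8 (0.70), Hspe1 (-0.05), Hspd1 (0.19) and Hsp90aa1 (0.25) were not called in the authors' deposited table. Spearman's rho between polysome and efficiency changes was 0.019 over 61 members and 0.053 over 9820 genes, as a description across genes.

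Several of the best known chaperones had very low footprint to mRNA ratios in control cells. The log2 ratio of footprints to mRNA in the control (shC) had a median of -0.25 in members and 0.04 in all genes in the authors' deposited table. Under -3.5, a limit chosen after the values were seen, were 6 of 61 members (9.84%) and 114 of 9830 genes (1.16%). In the lowest 5% of all genes, which lies below -2.18, were 7 members (11.5%), the same 6 and Bag1 (-2.40), as computed from the authors' deposited table. The 6 were Hspa8 (-8.95), Hspe1 (-5.70), Dnajc19 (-4.18), Hsp90aa1 (-3.87), Dnaja1 (-3.69) and Hspd1 (-3.51), and their ratios in the knockdown were -8.26, -5.76, -3.13, -3.62, -2.73 and -3.33 in the authors' deposited table. Hspe1 was the 13th lowest of all genes and Dnajc19 the 59th. Annotated pseudogenes named after the gene exist for Hspe1 (7), Hspd1 (5), Dnaja1 (1) and Dnajc19 (1), that is 4 of these 6, and for 3 of the other 55 members (Cct3, Hspa9 and Tcp1). Copies annotated under other names were not counted, so a gene without a count here may still have copies. The part of pseudogene copies in the ratio was not tested. TRiC subunits lay from -1.0 to -0.00, and the highest member was Hspa2 at 2.35 in the authors' deposited table.

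**Figure D3:**
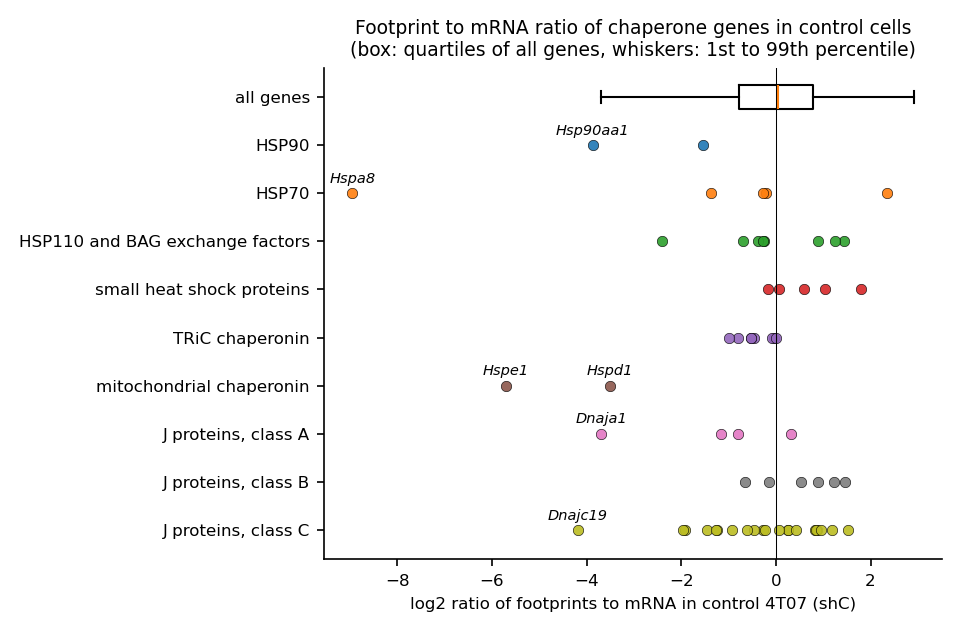
Log2 ratio of footprints to mRNA in control 4T07 cells for each chaperone gene by role; the box gives the quartiles of all genes and the whiskers their 1st and 99th percentiles. The named members below the rest run from Hspa8 at -8.95 to Hspd1 at -3.51, while the TRiC subunits lie from -1.0 to -0.00.

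In PyMT tumors no chaperone gene was called between the Lars genotypes. In the RiboTag comparison 0 of 73 members passed a DESeq2 adjusted p of 0.05 in the authors' deposited table, and 0 of all 23487 genes did (0%). At an unadjusted p under 0.05 there were also 0 members, beside 1.19% of all genes. The median log2 change was -0.06 in members and -0.01 in all genes, and the 95% interval of each of the 73 members spanned 0. With a median SE of 0.457 over the 66 members with a mean count of at least 50, changes of the size seen in the polysome comparison were not detectable for most members. In bulk libraries, fewer cells of a type and less RNA per cell cannot be told apart.

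The members with the smallest p were Hsp90aa1 at 0.91 (SE 0.56, unadjusted p 0.102, 95% interval -0.18 to 2.01), Bag2 at -0.83 (SE 0.56, unadjusted p 0.135), Dnajc4 at -0.61, Hspa2 at 0.53 and Dnajc9 at -0.44 by DESeq2 in the authors' deposited table. Hspa8 stood at 0.40 (interval -0.46 to 1.27), Hsp90ab1 at 0.27, Hspa9 at 0.23, Hspd1 at 0.09 and Hspe1 at -0.02 in the authors' deposited table. Further members were Cct2 (-0.01), Tcp1 (-0.14), Hsph1 (-0.25), Hspb1 (0.01), Dnajb1 (-0.18) and Bag3 (0.42) in the authors' deposited table. TRiC had 6 of its 8 subunits above 0, with a median of 0.23. Outside the rule, Hsp90b1 stood at 0.98 (unadjusted p 0.0567) and Htra2 at -1.28 (unadjusted p 0.0122) by DESeq2 in the authors' deposited table.

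**Figure D4:**
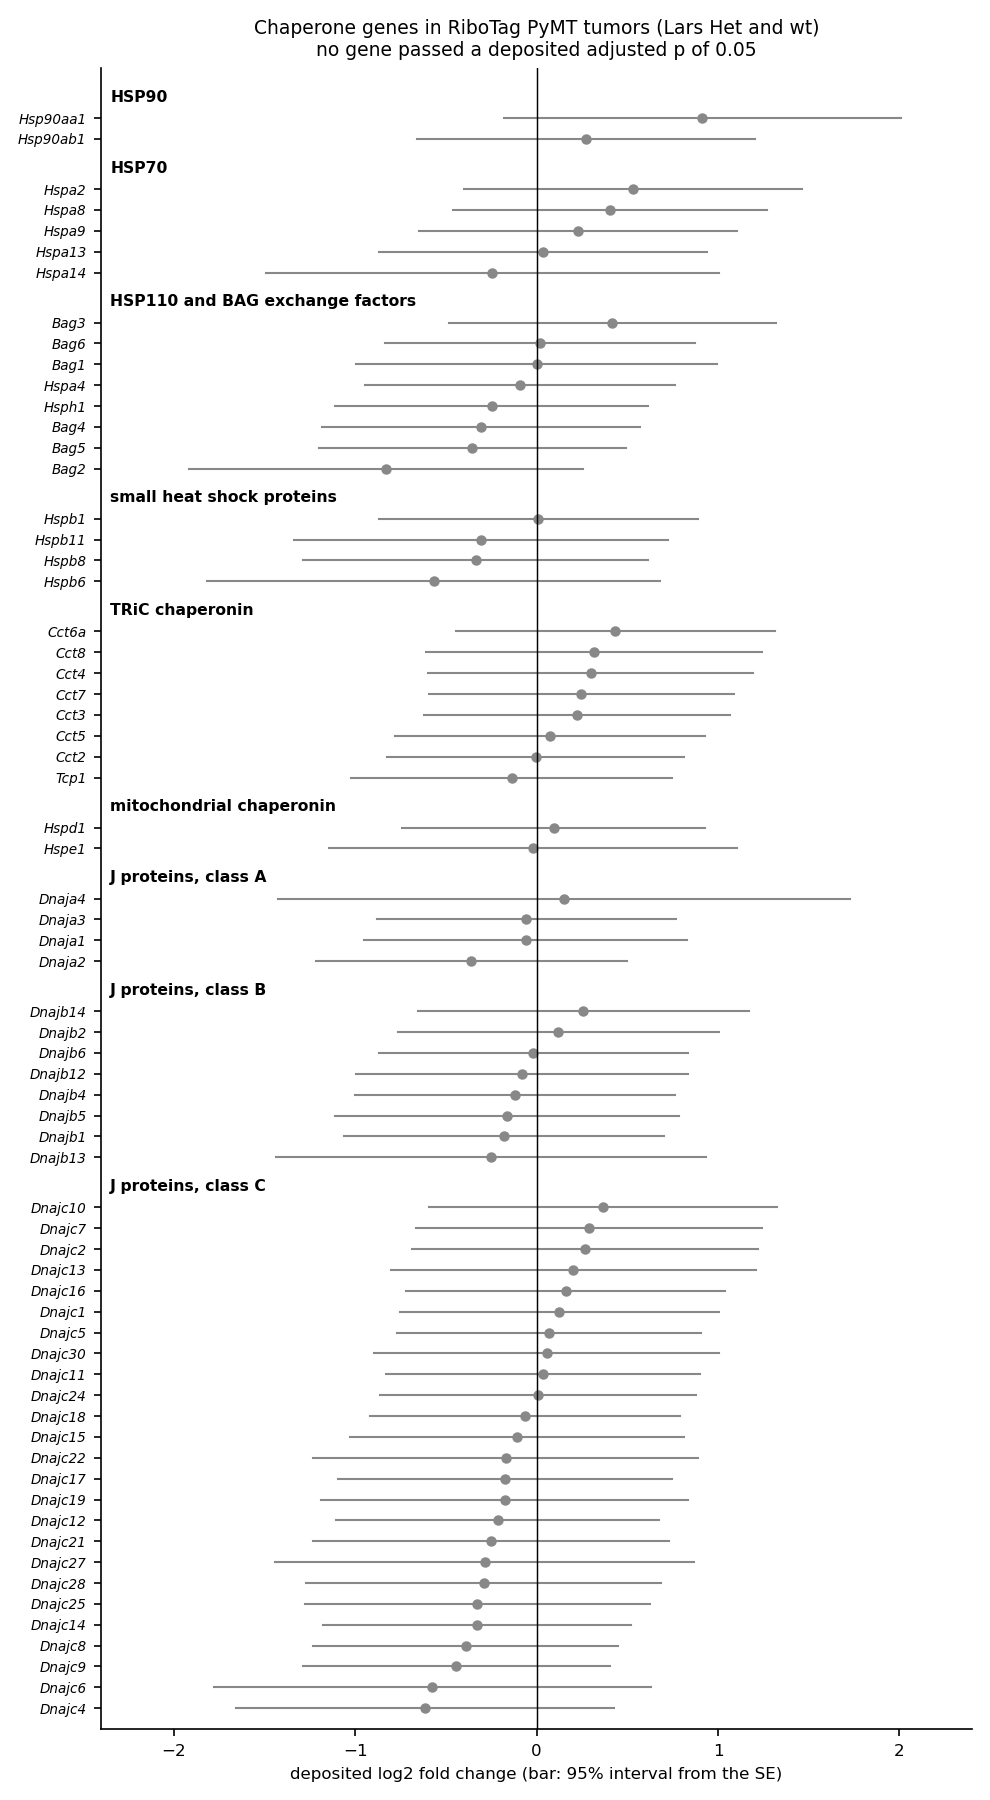
Log2 change of each chaperone gene whose mean normalized count was at least 50 in the RiboTag comparison of Lars fl/wt and Lars wt PyMT tumors, in groups by role; bars are 95% intervals from the deposited SE. Every bar crosses 0, and that of Hsp90aa1, the member with the smallest p, runs from -0.18 to 2.01.

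Markers of several cell types lay on the positive side of the same comparison. All 12 luminal markers were listed, with mean counts from 141 to 37552, a median log2 change of 0.24 and 10 of 12 above 0 in the authors' deposited table. Of 9 basal and smooth muscle markers all were positive, with a median of 1.37, and 5 had an unadjusted p under 0.05 by DESeq2, among them Acta2 (1.43) and Krt5 (1.74) in the authors' deposited table. Of 6 neutrophil markers all were positive, with a median of 2.06, and 3 had an unadjusted p under 0.05 by DESeq2 in the authors' deposited table. Several of these had low mean counts: Ly6g 1.315 (SE 3.45), Cxcr2 8.09 (SE 1.62), Csf3r 31.6 and Retnlg 34.8. Macrophage markers were positive in 7 of 7 listed, with a median of 0.49 in the authors' deposited table. Skeletal muscle markers had a median of -0.40 over 9, with 4 above 0, among them Myh4 at 4.44 (SE 3.11). Over all genes 50.49% were below 0, and 1.19% had an unadjusted p under 0.05 by DESeq2. None of the markers passed the adjusted p, and their part in the chaperone values was not tested.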

How the data were processed

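The TruSeq RNA kit v2, which does not mark strand, was used for the mouse RNA libraries other than footprints, per the labels' protocols. Tools of the authors named in the submitters' processing notes, with no role given, are STAR 2.5.2a, Bowtie2 2.4.1, HTSeq, featureCounts, SAMtools and DESeq2, and the build is mm10. Per the file headers, DESeq2, run by the authors, gave the polysome and RiboTag tables. The deposited mean normalized count (a signal) is the authors' mean of counts divided by size factors. The deposited log2 fold change and SE are on the log2 scale, the deposited Wald statistic is a score, and the deposited p-values, raw and adjusted, come from that Wald test. The efficiency table is an xtail result with log2 values and p-values computed by the authors, per the file headers. Its footprint minus mRNA change equalled the knockdown minus control ratio within 7.333e-05, which gives its direction. No table has a column per library, so planned count tests, depth and replicate spread were not analysed here, and 0 per-sample columns were left aside. The human tRNA tables were not used.

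Of 9851 efficiency rows, 3 without a gene and 18 with a date as symbol were left out; of 23495 RiboTag rows, 1 without a symbol and 7 duplicates. Intervals are the log2 change ± 1.96 SE. A gene was called at an adjusted p under 0.05 as deposited over all genes. Members, roles, pathway lists and markers (also fibroblasts, endothelium, T and B cells and adipocytes, with RiboTag median log2 changes of 0.53, -0.15, 0.25 and 0.80) were chosen with earlier results of these data known. Named were all polysome calls (coordinates and full statistics for the 5 highest and 5 lowest with a mean count of at least 50), the 5 smallest p elsewhere, the 5 highest and lowest mRNA and footprint changes, a fixed set of core chaperones and up to 3 genes per list; other genes were named after their values were seen. The values of 1 gene are not reported here. All 74 members were found in RefSeq's GRCm38.p6 annotation (mm10), which gave coordinates, overlaps and windows. Alternatives were other thresholds, recomputed Benjamini-Hochberg adjustments (tested on simulated data), minimum mean counts, fewer members and each xtail estimate. Python 3.11.15, pandas 2.3.3, numpy 2.4.6 and matplotlib 3.10.9 were used.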

Additional observations from a re-analysis of the deposited data

How the results depend on the processing

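Of 46 alternatives, 37 left the value within its limits (counts within 1.5 times, medians within 0.1) and 9 moved it. Part of the 37 was fixed in advance. Leaving out Hspb3, called positive, could not change the negative count, nor could adding Dnajc14, called negative, change the positive count of ER members. A change of sign was not looked for separately. The smallest DESeq2 adjusted p of all RiboTag genes was 0.1208, so a threshold of 0.10 could call no member there. At an adjusted p under 0.01 the polysome comparison had 3 positive and 9 negative members. Without members that overlap another annotated gene it had 2 positive and 10 negative, and without ER members 1 positive. Among ER members, counting Dnajc14 gave 2 negative calls, and leaving out overlapping genes gave 2 positive and 0 negative among 6 (both chosen after seeing the data). The first xtail estimate gave 1 positive member, Dnaja1. With the adjustment recomputed over all rows, Dnajc2, Dnajc9 and Hspb1 lost their call (17 negative members), and with a mean count of at least 50, Cct2, Cct7 and Hspa4 gained one (23). Leaving members out, or adding Dnajc14, changes the counts by construction, as does a stricter threshold; the cause of the change under the first xtail estimate was not tested. No paired analysis was possible because the tables hold no value per library, and for the same reason no replicate could be left out; low counts limit the tested members Hspb3, Cct6b, Hspb7, Hspb9, Dnajb13 and Dnajc28, with mean counts under 10.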
